A study of Homo sapiens with 74 samples.

Results

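SNRPC, the U1-C protein of the U1 small nuclear ribonucleoprotein (snRNP), was profiled on chromatin in HEK293T cells, a human embryonic kidney line that takes up plasmids readily. The members described here are all peaks of the 2 SNRPC Cut&Run libraries, 1261 in replicate 1 and 490 in replicate 2, together 1751 of the 92122 peaks that 72 libraries of 36 zinc-finger proteins (ZFPs) gave. Cut&Run directs a nuclease to the sites where an antibody sits and sequences the fragments that it releases. Each SNRPC replicate was a well of HEK293T cells, lipofected 48 h before with a plasmid that carried the SNRPC ORF with a C-terminal V5 tag under the EF1-alpha promoter. The V5 tag was targeted with an antibody on native cells, without crosslinking. The control was the same V5 antibody (mock IP) on un-transfected HEK293T cells of the same batch. The SNRPC lists were set beside those of WBP4, transfected and processed in the same way, with 509 and 452 peaks. Tagged SNRPC was expressed from a plasmid in addition to the cells' own SNRPC, and the control carried no plasmid. The study's overview of its proteins leaves the Cut&Run target genes of SNRPC blank. It has such an entry for as many ZFPs as the study reports to have passed its reproducibility check between replicates. By that count the SNRPC lists are outside the sets that passed, although the study does not name the sets that failed.

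U1 snRNP recognises the 5′ splice site at the start of splicing, by base pairing of its RNA, the U1 snRNA. U1-C holds a zinc finger, sits beside the paired 5′ splice site and stabilises the pairing. WBP4 (also called FBP21) is a WW-domain protein of the spliceosome. U2 snRNA pairs with the branch point, U4, U5 and U6 join as a tri-snRNP, and U12 takes the place of U2 in the minor spliceosome, which removes a rare class of introns. 7SK holds the elongation factor P-TEFb in an inactive complex, and 7SL is the RNA of the signal recognition particle.

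The results turned on a small set of RNA genes, and their sequences are shown first because the SNRPC peaks followed them closely. The RNU1-1 gene (U1 snRNA; hg38 chr1:16514122-16514285, minus strand) is printed 5′ to 3′ with the bases that pair with the 5′ splice site (positions 3 to 11) and the Sm protein site (positions 125 to 133) in capitals. RNVU1-28 (chr1:144560666-144560829, minus strand), RNVU1-7 (chr1:148038753-148038916, minus strand) and RNVU1-31 (chr1:145465617-145465780, minus strand) are the copies next most like it. With positions counted from 1 at the 5′ end, RNVU1-28 differed from RNU1-1 by G37T, RNVU1-7 by T150C and RNVU1-31 by A49T and C116T, all outside the capitals.
RNU1-1: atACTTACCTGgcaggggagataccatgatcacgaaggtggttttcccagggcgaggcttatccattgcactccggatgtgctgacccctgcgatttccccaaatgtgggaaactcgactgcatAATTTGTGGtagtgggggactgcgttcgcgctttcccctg
RNVU1-28: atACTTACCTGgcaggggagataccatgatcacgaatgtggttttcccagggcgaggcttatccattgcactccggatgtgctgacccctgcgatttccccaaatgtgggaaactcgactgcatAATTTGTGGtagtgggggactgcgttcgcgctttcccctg
RNVU1-7: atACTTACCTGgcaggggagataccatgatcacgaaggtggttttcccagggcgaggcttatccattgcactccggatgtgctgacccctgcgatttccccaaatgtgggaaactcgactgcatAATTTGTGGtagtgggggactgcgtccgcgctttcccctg
RNVU1-31: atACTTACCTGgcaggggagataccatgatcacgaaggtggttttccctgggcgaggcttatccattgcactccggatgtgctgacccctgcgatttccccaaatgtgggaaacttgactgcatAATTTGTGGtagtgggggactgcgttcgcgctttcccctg

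The other snRNAs that both replicates called are the U2 copies of the tandem array on chromosome 17, shown by the copy at chr17:43266633-43266823 (minus strand), and RNU12 (U12; chr22:42615244-42615393, plus strand). They are printed for comparison with U1, in lower case throughout.
U2 copy: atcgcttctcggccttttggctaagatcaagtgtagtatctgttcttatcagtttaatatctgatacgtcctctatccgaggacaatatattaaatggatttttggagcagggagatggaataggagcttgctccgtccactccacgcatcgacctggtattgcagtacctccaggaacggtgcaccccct
RNU12: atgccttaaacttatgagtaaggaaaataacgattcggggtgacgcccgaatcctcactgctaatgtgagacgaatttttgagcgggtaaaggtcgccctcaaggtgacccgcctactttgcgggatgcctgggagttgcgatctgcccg

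Each peak carries a fold, the signal of the library over the mock IP as the authors' peak caller gave it, and a q value, with 0.05 as the limit for the deposited lists. A peak over a SNRPC exon and a peak over EEF1A1, whose promoter drives the plasmid ORF, were set aside in each replicate, with folds of 540 and 615 at the exon and 3343 and 2898 at EEF1A1. The remaining 1259 and 488 peaks had median folds of 4.88 (quartiles 4.26 and 5.54) and 4.69 (quartiles 3.2 and 5.91). In replicate 1, 185 peaks (14.7%, 95% exact binomial interval 12.8 to 16.8) overlapped a peak of replicate 2, and in replicate 2, 208 peaks (42.6%, 38.2 to 47.1) overlapped one of replicate 1. Merging overlapping peaks gave 182 regions found in both replicates, 1074 in replicate 1 alone and 280 in replicate 2 alone. These intervals cover counting error of the lists only, and the read total behind each list is not known here. Within either list alone, p-values and folds carry no replicate error, so the replicates are given side by side.

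The 3 groups of regions differed in what they lay on. Of the 182 shared regions, 51 were satellite-like (28%, 21.6 to 35.1), with at least 5 ATTCC or GGAAT pentamers around the summit, and 46 lay in ribosomal DNA (25.3%, 19.1 to 32.2). A further 13 lay on snRNA genes, counting the 7SK locus, 2 on the 7SL genes, 11 matched the SNRPC transcript, 12 lay within 1 kb of the transcription start site (TSS) of a protein-coding gene, and 7 were on the mitochondrial genome. The rest were an exon of ZNF473, 8 regions near other TSSs and 31 elsewhere. The regions of replicate 1 alone were mostly protein-coding promoters, 696 of 1074 (64.8%, 61.9 to 67.7), and 3 of them lay on a snRNA gene. In replicate 2 alone, 73 of 280 regions (26.1%, 21 to 31.6) lay at protein-coding promoters and 70 (25%, 20.04 to 30.5) were satellite-like.

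**Figure D1:**
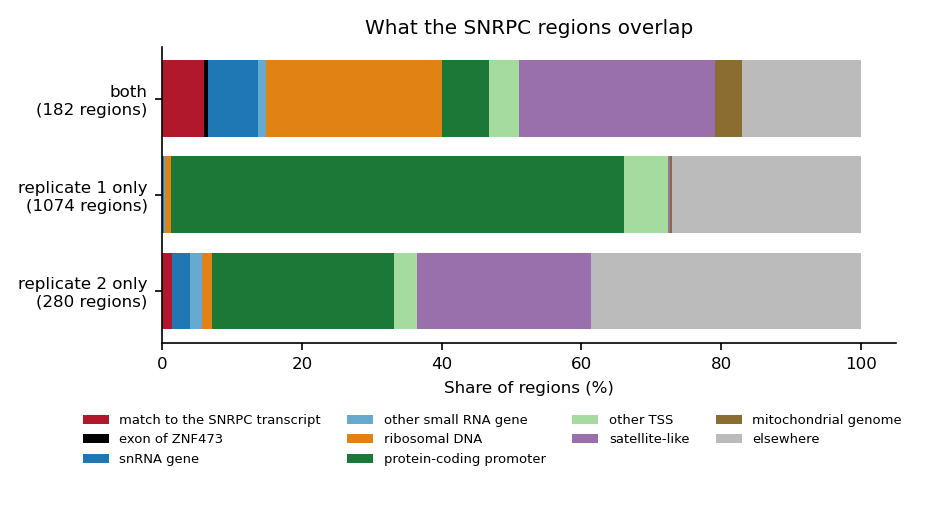
Share of SNRPC regions (x axis, percent) by what they overlap, for regions found in both replicates, in replicate 1 alone and in replicate 2 alone (bars, each colour a class; each region is in 1 class). Protein-coding promoters made up 6.59% of the shared regions, 64.8% of those of replicate 1 alone and 26.1% of those of replicate 2 alone.

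All 8 annotated U1 genes whose 164 bases are identical to RNU1-1 had a SNRPC peak in both replicates. In replicate 1 the fold was 19.9 at RNU1-1, 21.3 at RNU1-2, 12.1 at RNU1-3, 18.6 at RNU1-4, 15.8 at RNVU1-18, 13.2 at RNVU1-29, 18.2 at RNU1-27P and 14.9 at RNU1-28P. In replicate 2 the folds, in the same order, were 20.2, 29.3, 14.7, 26.0, 23.0, 16.2, 19.2 and 18. Every one of the 8 was higher in replicate 2, and RNU1-2 led and RNU1-3 was lowest in both. A ninth exact copy, on the unlocalized chromosome 1 contig KI270713v1, also had a peak in both replicates (10.1 and 15.8), so that 9 of 9 exact copies in the hg38 sequence were called. Reads from identical copies cannot be assigned to one of them, so these folds are not independent measurements, and RNU1-27P and RNU1-28P carry the names of pseudogenes.

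U1 genes with another sequence were called less often. GENCODE lists 146 U1-family genes, and the 2 with 163 of 164 bases in common with RNU1-1 were called in 1 replicate each, RNVU1-28 in replicate 1 (fold 12.1) and RNVU1-7 in replicate 2 (fold 10.8). The other 136 genes, from RNVU1-31 with 162 identical bases down to 93, had no SNRPC peak. The same was seen less completely for U2, where 11 copies share the commonest sequence. Of these, 3 were called in both replicates and 4 in 1, and 2 further copies among the 90 U2-family genes, with another sequence, had a peak in 1 replicate each. The identity of the copies was examined after the peaks had been seen and is given as a description.

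The 3 U2 copies called in both replicates had folds of 8.50 and 11 (chr17:43266633-43266823), 7.70 and 8.20 (chr17:43271369-43271559) and 7.01 and 9.06 (chr17:43284139-43284329). RNU12 had folds of 5.68 in replicate 1 and 9.91 in replicate 2. RN7SK had 13.5 and 19.2, RN7SL1 8.41 and 10.4, and RN7SL2 7.15 and 9.89. All 15 of these small RNA genes, U1 included, had the higher fold in replicate 2, and the U1 copies stood above U2, U12 and 7SL in each replicate. RNU4-2 (U4; 8.29), RNU2-2P (U2; 7.44), RMRP (the RNA of RNase MRP; 7.29) and RPPH1 (the RNA of RNase P; 7.11) were called in replicate 2 only. Among 1309 U6, 156 U7, 6 U11, 18 U4atac and 41 U6atac genes and copies, no SNRPC peak was found in either replicate. RNU5E-6P, a U5 copy, was the lone U5 gene of 31 with a peak (replicate 1, fold 5.81).

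**Figure D2:**
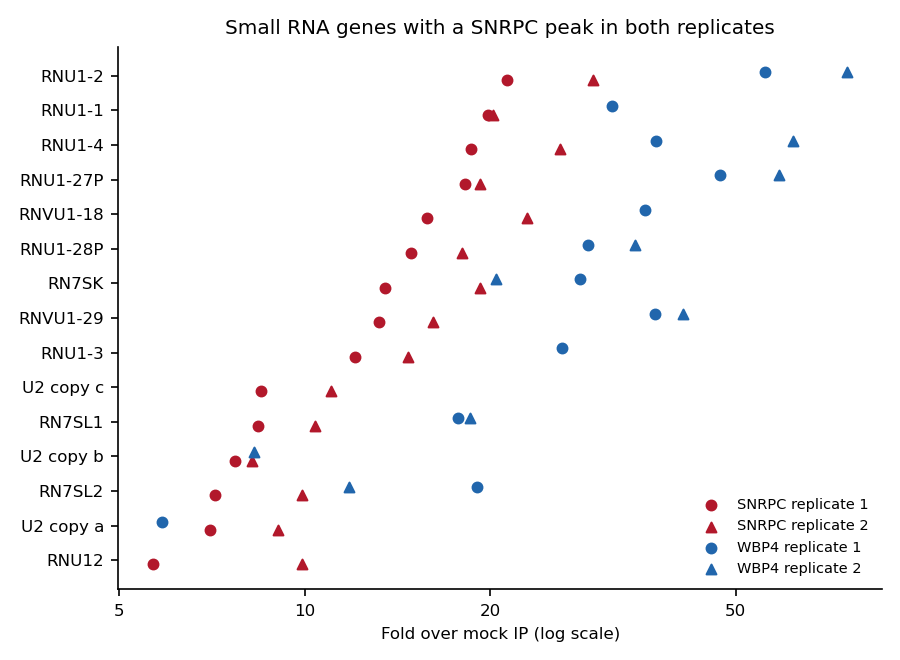
Fold over mock IP (x axis, log scale) at the 15 small RNA genes with a SNRPC peak in both replicates (rows, ordered by the lower SNRPC fold; U2 copies a, b and c are those at 43284139, 43271369 and 43266633 on chromosome 17). Red marks are SNRPC and blue marks WBP4, circles replicate 1 and triangles replicate 2, and a missing mark is a list without a peak there; at each U1 gene the WBP4 marks lie to the right of the SNRPC marks.

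The peaks took the outline of the RNA gene itself and not of its promoter. At 6 of the 8 U1 genes of replicate 1 and at all 8 of replicate 2, the peak was 174 to 179 bp long over a gene of 164 bp. Its left edge on the genome lay within 2 bp of the gene's left end and its right edge 10 to 15 bp past the right end, on either strand. The peak at RNU1-1, on the minus strand, ran from 16514122 to 16514296 in both replicates, and that at RNU1-2 (chr1:16895980-16896143, plus strand) from 16895980 to 16896154 in replicate 1 and to 16896155 in replicate 2. The exceptions were RNU1-4, where the peak of replicate 1 began 162 bp before the gene, and RNVU1-29, where it ended 161 bp past it. Over all small RNA genes of these families with a peak, both edges lay within 15 bp of the ends of the gene at 11 of 18 genes in replicate 1 and at 18 of 22 in replicate 2.

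**Figure D3:**
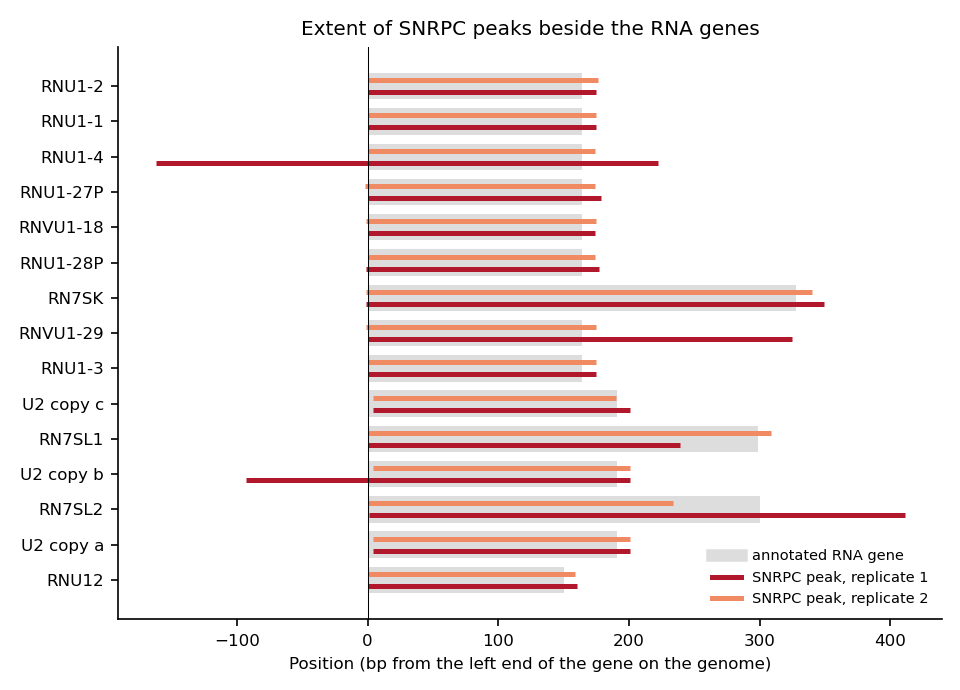
Extent of the SNRPC peaks (red, replicate 1; orange, replicate 2) beside the annotated RNA gene (grey bar) for the 15 small RNA genes called in both replicates, in bp from the gene's left end on the genome. At the U1 genes the peaks start within 2 bp of 0, apart from replicate 1 at RNU1-4, and end 10 to 15 bp past the gene's end, apart from replicate 1 at RNU1-4 and RNVU1-29.

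The U1 promoters lie next to these peaks. snRNA genes of this kind are driven by a proximal sequence element (PSE), which the complex SNAPc binds upstream of the start. The letters ACCGNNNNTNNAA, where N is any base, were searched for on both strands of the window from 250 bases before to 50 after the annotated start, and 6 of the 8 U1 genes held them, each time on the gene's own strand and starting at position -59. The same pattern stood in 1.05% of 20046 protein-coding promoters, 3.21% of 1901 snRNA-type genes and 11.8% of the 136 U1-family genes without a peak. Other patterns searched were the octamer ATGCAAAT, CCAAT and TATAAA, which none of the 8 held, and the GC box GGGCGG, in 2 of 8 (52.4% of protein-coding promoters). A match is a string of letters and not a measured site. The window of RNU1-2 is printed with the PSE pattern in capitals (hg38 chr1:16895730-16896029, plus strand), and the SNRPC peaks began at the first base of the RNA, after the upstream bases of this window.
RNU1-2 promoter: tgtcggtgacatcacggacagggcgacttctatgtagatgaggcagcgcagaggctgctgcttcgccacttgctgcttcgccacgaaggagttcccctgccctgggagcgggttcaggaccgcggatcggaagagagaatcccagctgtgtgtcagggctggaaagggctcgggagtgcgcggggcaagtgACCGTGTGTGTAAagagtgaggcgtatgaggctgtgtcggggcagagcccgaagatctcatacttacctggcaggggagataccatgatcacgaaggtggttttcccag

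Peaks at the U1 genes were not particular to SNRPC. At least 1 of the 8 identical U1 genes was called in a list of 25 of the 35 other ZFPs, and in both replicates of 12 of them. CISD1, G2E3 and GIN1 also had all 8 in both replicates, with median folds of 48.0 and 32.9, 25.4 and 20.9, and 50.6 and 19.0 in replicates 1 and 2, against 17 and 19.7 for SNRPC. WBP4 had all 8 in replicate 1 (median 36.3) and 5 in replicate 2 (median 58.8). At RNU1-2 the WBP4 folds were 55.8 and 75.9, at RNU1-27P 47.2 and 58.8, and at RNU1-28P 28.8 and 34.3. RNU1-1, RNU1-3 and RNVU1-18 had a WBP4 peak in replicate 1 alone, at 31.5, 26.1 and 35.6. No test compares folds between lists, since each was set against the mock IP of its own batch.

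RNU12 was the member of this set that the fewest other ZFPs shared. A peak over it was called for 4 other ZFPs in either replicate and for GIN1 in both, and for WBP4 in none. The U2 copy at chr17:43266633-43266823 also had no WBP4 peak, while RN7SK was called in both replicates of 17 other ZFPs (WBP4 folds 28 and 20.4) and RN7SL1 in both of 12 (WBP4 folds 17.7 and 18.5).

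Peaks within 1 kb of any annotated snRNA gene made up 1.35% (17 of 1259, 0.789 to 2.15) in replicate 1 and 4.10% (20 of 488, 2.52 to 6.26) in replicate 2 of the SNRPC lists, a mean of 2.72% ± 1.94 (SD, n = 2). The mean over the 35 other ZFPs was 1.01% ± 1.77 (SD). SNRPC stood in place 4 of 36, after MBNL1 (10.2%), ZNF2 and MAZ, and the difference did not pass a two-sided exact permutation test over the ZFPs (p = 0.111, adjusted p = 0.444 over 4 shares tested). Its direction rested on replicate 2, since replicate 1 alone, at 1.35%, lay under the mean of the other ZFPs' replicate 1 lists (difference -0.135 percentage points). The smallest p that 36 ZFPs allow is 0.0278, so a single share could not pass 0.05 after adjustment over 4.

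The 46 shared ribosomal regions lay along the 45S units of chromosome 21 and of the contigs KI270733v1 (chromosome 22, unlocalized) and GL000220v1 (unplaced), which hold the genes for the 18S, 5.8S and 28S rRNAs of the ribosome. Coordinates of these genes on chromosome 21 were taken from RefSeq (GRCh38.p14). By the lower of both folds RNA5-8SN1 stood first, with 19.2 and 19.5 (WBP4 14.4 and 13.9). In replicate 1 alone a region near ENSG00000281383 (chr21:8254453-8257453), which also spans a 5.8S copy, was higher, with 21.4 and 18.1. Of the 4 exact 5.8S copies on chromosome 21, RNA5-8SN2 had 13.4 and 12.6 and RNA5-8SN3 had 13.5 and 13.1. At 18S the folds were 5.50 and 5.12 for RNA18SN2, 6.04 and 6.33 for RNA18SN3 and 3.12 and 5.24 for RNA18SN1. At 28S they were 8.69 and 9.73 for RNA28SN2, 14.0 and 16.8 for RNA28SN3 and 9.30 and 10.7 for RNA28SN1.

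Some ribosomal peaks began at the 5′ end of the mature RNA. The peak over RNA18SN2 (chr21:8209631-8211499) began at the gene's own base 1 in both replicates, as did that over RNA18SN3 (chr21:8392666-8394534), and RNA18SN1 (chr21:8436876-8438744) had such an edge in replicate 2 and one at -238 bp, upstream, in replicate 1. At RNA28SN2, RNA28SN3 and RNA28SN1 the nearest peak edge lay at -1, -36 and 0 bp from base 1 in replicate 1 and at -1, 0 and 0 bp in replicate 2. The 3′ edges were less regular in replicate 1, at 264, 550 and -34 bp from the last base of RNA18SN2, RNA18SN3 and RNA18SN1 and at 871, 19 and 831 bp from that of RNA28SN2, RNA28SN3 and RNA28SN1. In replicate 2 the same edges lay at -8, 97 and -25 bp for 18S and at 19, 18 and 148 bp for 28S. The 5.8S peaks of replicate 1 were wide, beginning at -382, -334 and -399 bp and ending at 529, 460 and 425 bp for RNA5-8SN2, RNA5-8SN3 and RNA5-8SN1. Those of replicate 2 began at -4, -156 and -6 bp and ended at 20, 20 and 22 bp, in the same order. Peaks covered 98.2% to 100% of each 18S gene. Of RNA28SN2, RNA28SN3 and RNA28SN1 they covered 75.7%, 76.1% and 90.7% in replicate 1 and 68.7%, 67.6% and 74.4% in replicate 2. Of the whole 45S units, 71.4% to 84.0% was covered in replicate 1 and 52.1% to 57.5% in replicate 2. Of the 46 regions, 45 overlapped a WBP4 peak, and a region was called for a median of 26 of the 35 other ZFPs. The units on chromosome 21 and the contigs are near-identical, so their reads could be placed on any of them.

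The highest folds of the SNRPC lists stood at sequences that resemble SNRPC itself. Of the 15 shared regions with the highest lower fold, 10 matched the SNRPC transcript, and the others were RNU1-2, RNU1-1, an exon of ZNF473, RNA5-8SN1 and RNU1-4. The pseudogene SNRPCP2 (region chr5:76376670-76377167) had folds of 1977 and 2022, and its 498 matching bases were 93.8% identical to a SNRPC transcript. An unnamed processed pseudogene on chromosome 12 (ENSG00000277952, region chr12:8340188-8340410) followed with 390 and 420, then SNRPCP4 with 204 and 225 and SNRPCP5 with 112 and 147. The others of the 11 shared matches ranged from SNRPCP6 (108 and 123) to SNRPCP15 (12.5 and 21.9). Matches at SNRPCP9 (59.5), SNRPCP14 (53.9), SNRPCP8 (45.9) and SNRPCP17 (16.4) were called in replicate 2 alone. Of the 11 shared matches, 10 overlapped no peak of another ZFP and none a WBP4 peak. The plasmid carried the SNRPC ORF and the mock IP cells did not, and whether plasmid reads gave these peaks was not tested.

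**Figure D4:**
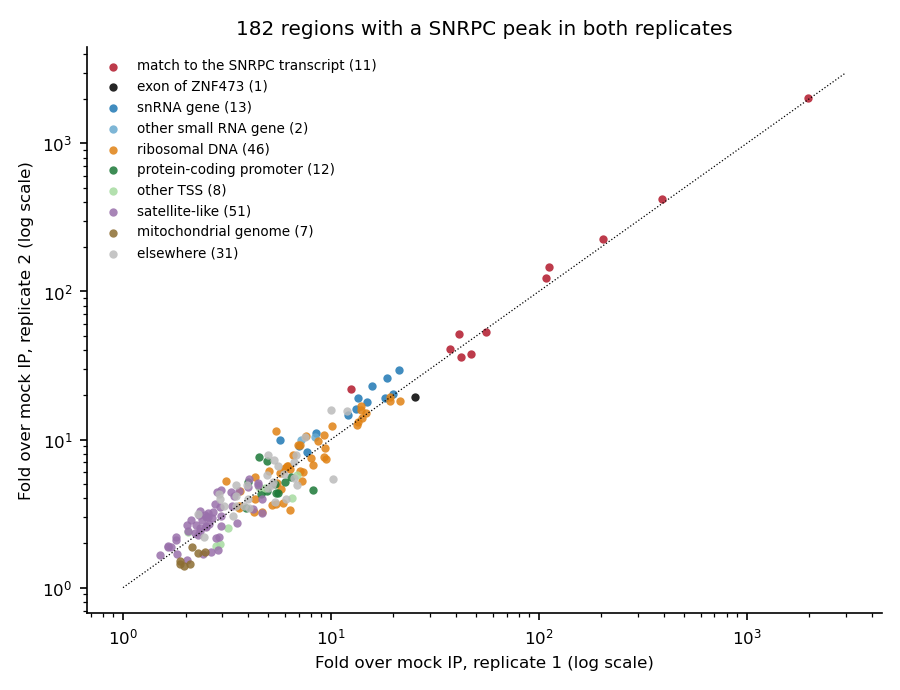
Fold over mock IP in replicate 1 (x axis) and replicate 2 (y axis), both on log scales, for the 182 regions with a SNRPC peak in both replicates; each point is a region, coloured by class, and the dotted line marks equal folds. Matches to the SNRPC transcript reach 1977 and 2022, the snRNA genes lie between 5.68 and 29.3, and satellite-like regions lie at the low end with a median lower fold of 2.50.

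Protein-coding promoters made up 12 of the shared regions, at 11 genes, with folds under 9 in both replicates. ZNF768, a zinc-finger protein gene, had folds of 6.42 and 5.58, B3GALNT2, a glycosyltransferase gene, 6.03 and 5.21, RABIF, a Rab GTPase regulator, 5.37 and 5.00, and ADAP1, an Arf GTPase-activating protein, 4.92 and 7.22. NFE2L2, the transcription factor of the oxidative stress response, had 4.51 and 7.58, and C14orf93 had 1 region with 8.23 and 4.58 and another with 4.91 and 4.46. The remaining 5 were OPA3 (5.54 and 4.34), the anion exchanger gene SLC26A6 (5.44 and 4.32), C6orf226 (4.63 and 4.27), SMTNL2 (3.98 and 5.14) and the mucin gene MUC3A (3.92 and 3.43). Several of these regions lay near the q limit of 0.05 in 1 replicate. The −log10 q of the authors' peak caller in replicate 2 was 1.36 at OPA3, 1.40 at SLC26A6 and 1.32 at C6orf226. In replicate 1 it was 1.41 at SMTNL2 and 1.80 at NFE2L2. Only ZNF768, ADAP1, MUC3A and the C14orf93 region with folds of 4.91 and 4.46 had a q value under 0.001 in both replicates. The folds of the replicates overlap and neither replicate is higher throughout. All 12 were called for other ZFPs too, from 2 of 35 at SMTNL2 to 31 at ADAP1 and MUC3A, and ADAP1 and MUC3A alone had a WBP4 peak. Of the 11 gene promoters, 9 held the GC box and none the PSE pattern.

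Promoters were far more frequent in replicate 1. A TSS of any gene lay within 1 kb of 837 of 1259 peaks (66.5%, 63.8 to 69.1) in replicate 1 and of 164 of 488 (33.6%, 29.4 to 38.0) in replicate 2. At a q value under 0.001 the shares were 64.5% and 30.1%. Their mean, 50.04% ± 23.2 (SD, n = 2), stood in place 12 of 36 and did not differ from the other ZFPs (32.5% ± 23.5, SD, n = 35) beyond their spread (two-sided exact permutation test, p = 0.722, adjusted p = 0.889). Of 62700 genes, 1249 (1.99%) had a SNRPC peak within 1 kb of a TSS in replicate 1, 241 (0.384%) in replicate 2 and 116 (0.185%) in both, with 2.19% in either. For 20046 protein-coding genes the numbers were 864 (4.31%), 112 (0.559%) and 31 (0.155%), with 4.71% in either, and for 1901 genes of type snRNA 17 (0.894%), 20 (1.05%) and 13 (0.684%), with 1.26% in either. Some of the 31 coding genes count through a neighbour, as RPS29 does through RN7SL1, 200 bp away. Others, such as MT-CO1, MT-CO2 and MT-CO3, lie on the mitochondrial genome. Of the regions of replicate 1 alone, RNVU1-28 had the highest fold, followed by the promoter of the ubiquitin ligase subunit gene RBX1 (8.64), ENSG00000224738 (8.51), the promoter of USP53 (8.30) and that of HCFC1 (8.28), a transcriptional coregulator.

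Gene lists of the spliceosome and of highly expressed genes were read against these shares. In both replicates, a SNRPC peak lay within 1 kb of a TSS of 7 of 18 listed U1 genes, 1 of 19 other snRNA genes (RNU12) and 3 of 12 RNA polymerase III genes (RN7SK, RN7SL1 and RN7SL2), beside 0.185% of all genes. None of the 17 genes for U1 snRNP and Sm proteins had a peak in either replicate. Of 45 splicing factor and hnRNP genes, HNRNPD (5.54), HNRNPDL (6.64) and SRSF2 (6.17) were called in replicate 1 and none in replicate 2. Replicate 1 alone also held 3 of 20 snoRNA host genes (GAS5, TAF1D and ZFAS1, 4.93 to 6.45), 3 of 15 heat shock genes (HSP90AA1, HSPD1 and HSPE1, 4.26 and 4.63), 3 of 24 immediate early genes (BTG2, EGR2 and KLF10, 4.75 to 5.1) and 5 of 68 replication-dependent histone genes (5.81 to 6.19). HSPD1 and HSPE1 share a promoter, as do pairs of the histone genes, and each pair has 1 peak. Of 86 ribosomal protein genes, RPL10 and RPS25 were called in replicate 1, RPL26 in replicate 2 and RPS29, through RN7SL1, in both. Beside them stand 4.31% of all protein-coding genes in replicate 1 and 0.559% in replicate 2. The snoRNA host list also holds noncoding genes, and for genes of all types the shares were 1.99% and 0.384%. No list was tested against these.

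WBP4 peaks overlapped 143 of the 182 shared regions (78.6%), and 116 of them in both WBP4 replicates. Of the single lists, 194 of 1259 SNRPC peaks of replicate 1 (15.4%, 13.5 to 17.5) and 259 of 488 of replicate 2 (53.1%, 48.5 to 57.6) overlapped a WBP4 peak. In the other direction, 230 of 503 WBP4 peaks of replicate 1 (45.7%, 41.3 to 50.2) and 217 of 446 of replicate 2 (48.7%, 43.9 to 53.4) overlapped a SNRPC peak. The mean SNRPC share, 34.2% ± 26.6 (SD, n = 2), did not differ from the other 34 ZFPs (31.6% ± 17.2, SD) beyond their spread (two-sided exact permutation test, p = 0.857, adjusted p = 0.889), and replicate 1 alone turned the direction (15.4%, difference -16.5 percentage points from the other ZFPs' replicate 1 lists). WBP4 stood in place 10 among the 35 other ZFPs by the number of shared SNRPC regions reached, and CISD1 (169), GIN1 (168), APEX2 (159) and PHF7 (159) reached the most, with 5115 to 11329 peaks each against 949 for WBP4. Of the 167 regions found in both WBP4 replicates, 111 (66.5%) lay on a shared SNRPC region, which was place 3 among the other ZFPs, after MBNL1 (31 of 31) and ZNF2 (74 of 111).

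The regions common to SNRPC and WBP4 were mostly repeated sequence and small RNA genes. WBP4 peaks met 50 of 51 satellite-like regions, 45 of 46 ribosomal regions, all 7 mitochondrial regions, 11 of 13 snRNA regions and both 7SL regions. Peaks of both WBP4 replicates met 45 satellite-like, 44 ribosomal, 6 snRNA and both 7SL regions, but none of the mitochondrial regions. WBP4 replicate 2 had no peak on the mitochondrial genome. The 10 shared regions with peaks in both WBP4 replicates and the highest SNRPC fold were 4 U1 genes (RNU1-2, RNU1-4, RNU1-27P and RNU1-28P) and 6 ribosomal regions. The 39 shared regions without a WBP4 peak were the 11 matches to the SNRPC transcript, 10 of 12 protein-coding promoters, 11 of 31 regions elsewhere, 2 near other TSSs, the ZNF473 exon, RNU12, a U2 copy, 1 ribosomal and 1 satellite-like region.

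The satellite-like and mitochondrial regions had low folds and were common to most ZFPs. The lower fold of the 51 satellite-like regions ranged from 1.5 to 4.46, and a region was called for a median of 33 of the 35 other ZFPs. The 7 mitochondrial regions had a lower fold of 1.39 to 1.87. Among the 31 shared regions elsewhere, 1 held the U1 copy on contig KI270713v1 and 1 near HFM1 (chr1:91387277-91387547; folds 11.9 and 15.6) matched the 45S rRNA over all of its 271 bases at 100% identity. A region near MIR4485 (chr11:10509372-10509713; 5.32 and 7.32) matched the mitochondrial genome over 342 bases at 97.4%. Of the 8 regions near other TSSs, 6 matched one or the other.

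The replicate overlap was also set beside that of the other ZFPs. The share of the shorter list found in the other was 42.6% for SNRPC and 42.8% for WBP4, against 45.4% ± 20.2 (SD) over the 35 other ZFPs, a difference within their spread (two-sided exact permutation test, p = 0.889, adjusted p = 0.889). SNRPC stood in place 24 of 36, and the median of the other ZFPs was 49.7%. Their mean and spread include ZC3H3 and ZMAT5 at 0% and TRIM55 at 0.926%. With satellite-like peaks left out of every list, the direction of the difference from the mean turned (42.5%, difference 5.54 percentage points).

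**Figure D5:**
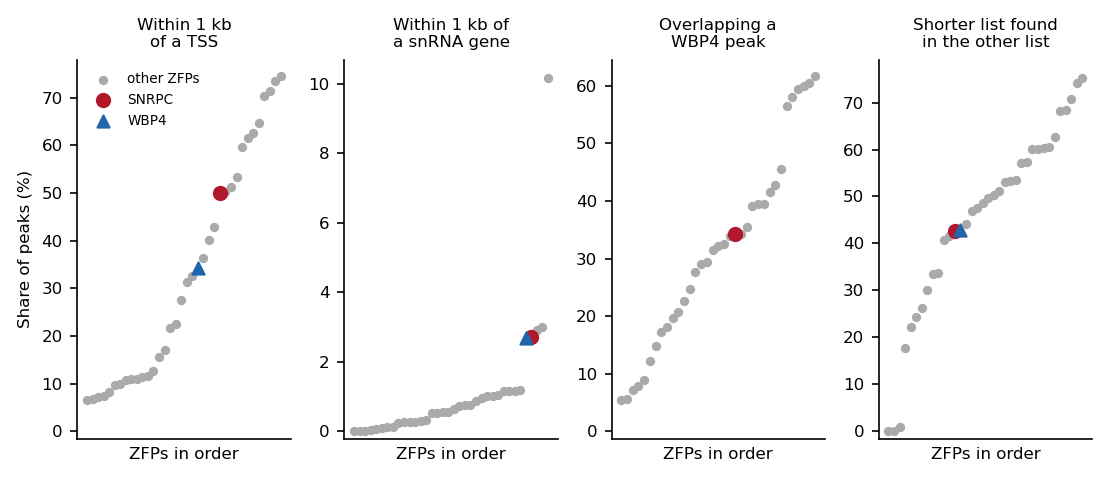
Share of peaks (y axes, percent) for 36 ZFPs in ascending order, for 4 measures: peaks within 1 kb of a TSS, within 1 kb of a snRNA gene and overlapping a WBP4 peak (means of 2 replicates), and the share of the shorter replicate list found in the other. SNRPC (red) stands at 50.04%, 2.72%, 34.2% and 42.6%, inside the range of the other ZFPs in each panel.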

How the data were processed

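The peak lists of 36 ZFPs in 72 libraries were used, with protein and replicate number read off the sample titles. The submitters' processing notes name hg38, Trimmomatic 0.36, Bowtie2 2.3.5.1, Picard 0.1.8 and MACS2 2.2.7.1. By the methods, reads were trimmed, fragments of 10 to 700 bp were aligned and duplicates were taken out, and peaks of every library were then called with its own batch's mock IP as background. The deposited fold is a ratio of signal to mock IP. The authors also deposited −log10 p and −log10 q for each peak, and a score that follows from −log10 q. The sources used here do not say how reads with several equal placements were treated and hold no read totals, so list length stands in for depth. By the methods, a reproducibility check between replicates chose the sets the study went on with, and the study reports that those of 36 ZFPs passed. Its overview of the proteins gives Cut&Run target genes for as many ZFPs. It has no such entry for SNRPC, MBNL1, CPSF4, TRIM55, ZC3H3 and ZMAT5, all used here, which by that count are outside the sets that passed. The study does not name the sets that failed, and the 36 ZFPs used here are another set than its own.

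Members and gene lists were chosen with earlier results of these data known. Peaks on exons of a ZFP's own gene or on EEF1A1 were left out for every ZFP, except in the count of other ZFPs called at a region. Overlap was at least 1 bp. Distances were measured from the peak edge to GENCODE 44 TSSs or snRNA genes, and GENCODE here covers no unlocalized or unplaced contigs. Each region was put in the first fitting class: SNRPC match (blastn 2.17.0, E value under 1e-10), ZNF473 exon, mitochondrial, satellite-like (pentamers counted within 100 bp of the summit), within 20 kb of a 5.8S copy, small RNA gene, coding TSS, other TSS, elsewhere. The SNRPC match, ZNF473 and ribosomal classes and the comparison of copies were chosen after the data were seen. Shares were compared by exact permutation of the SNRPC label over ZFPs, with Benjamini-Hochberg adjustment over 4 shares. Named regions are the 15 shared regions with the highest lower fold, snRNA genes with a peak, the top 10 shared with both WBP4 replicates, listed genes and the top 5 of each replicate alone; the shared promoters, the U6, U7, U11, U4atac and U6atac counts and other regions were named after their values were seen. Python 3.11.15, scipy 1.17.1, pandas 2.3.3, biopython 1.88 and pysam 0.24.0 were used. Overlap, distance and permutation code was tested on simulated data. Alternatives were a stricter q value, satellite-like peaks or pseudogenes left out, other distances and overlaps, and each list left out.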

Additional observations from a re-analysis of the deposited data

Results flagged for a closer look

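Both SNRPC replicates had a peak over an exon of ZNF473, a zinc-finger protein gene, in cells whose plasmid carried SNRPC (chr19:50044669-50047054; folds of 25.3 and 19.3). The lower of the 2 folds, 19.3 in replicate 2, was far above the mock IP. Beside RNU1-4, with 18.6 in replicate 1 and 26.0 in replicate 2, the ZNF473 fold was higher in replicate 1 and lower in replicate 2. The region was called for 6 of the 35 other ZFPs, in both replicates for G2E3 and ZNF800. The study also ran Cut&Run on V5-tagged ZNF473 expressed from a plasmid, and no ZNF473 library was analysed here. Exons of other ZFPs of the study had SNRPC peaks in a single replicate, CISD1, MAZ, MBNL1 and ZC3H3 in replicate 1 and BRCA1 and GIN1 in replicate 2. The source of the ZNF473 peak was not tested.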

How the results depend on the processing

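Alternatives included leaving out peaks that match the SNRPC transcript, chosen after seeing the data, which gave 171 shared regions, 107 genes and 143 regions with a WBP4 peak. No paired analysis was possible because no test compares the replicates of 2 groups, the shares being averaged over the replicates of each ZFP. No share test reached an adjusted p under 0.05 under any alternative run. A single share at the smallest p that the number of ZFPs allows stays above 0.05 after adjustment over the 4 shares. Each alternative changed 1 share and was adjusted with the main p-values of the others, so no alternative could pass on its own. The 182 shared regions ranged from 131 to 182 and the 8 U1 genes stayed at 8 under the alternatives run for them. The TSS share kept its direction in 11 of 11 alternatives, from 33.6% to 66.5% with 1 replicate left out. The snRNA share fell to 1.35% without replicate 2, below the mean of the other ZFPs' replicate 1 lists, and was 4.10% without replicate 1 (p = 0.0278, adjusted p = 0.111, exact permutation). The WBP4 share was 15.4% without replicate 2, also below the others, and 53.1% without replicate 1. Leaving satellite-like peaks out put the replicate overlap of SNRPC, 42.5%, above the mean of the others and the shared regions with a WBP4 peak at 93 against 143. Genes called in both replicates numbered 116 for all genes and 31 for protein-coding genes, and single replicates gave 241 to 1249. Shared regions with a WBP4 peak numbered 126 to 133 with 1 WBP4 list left out.

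With 2 replicates whose lists differ in length, a region of 1 list alone can miss the limit in the other, and folds at repeated genes depend on how reads were placed among copies. The snRNA and WBP4 shares turned with the choice of replicate and the replicate overlap with satellite-like peaks left out, and the cause was not tested.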

Other observations

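BRCA1, a DNA repair gene, had 3 SNRPC peaks over its exons in replicate 2 alone, with folds of 6.2, 7.18 and 10.8. The ZFP BRCA1 alone among the other ZFPs had peaks at all 3 in both replicates, in cells whose plasmid carried the BRCA1 ORF. Such peaks on a ZFP's own exons were left out of the shares. The source of the SNRPC peaks over BRCA1 was not tested. The U3 snoRNA genes SNORD3C and SNORD3B-1, whose RNA takes part in processing of the 45S precursor, had folds of 9.02 and 7.36 in replicate 2 alone. A region at the start of chromosome 5 (chr5:10176-11704; folds 6.83 and 7.89) was called in both replicates of 29 of 35 other ZFPs. These regions were chosen after their values were seen.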
